A study of Mus musculus with 20 samples.

Results

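The acute phase and metallothionein genes described here were 10 named genes, Serpina3n, Serpina3m, Orm1, Saa3, Hp, Lrg1, Mt1, Mt2, C3 and Cp, among the 54446 genes of a count table from mouse tibiae. They were chosen by symbol, and Serpina3n and Orm1 were selected because they had been seen to be higher under dexamethasone (DEX) in these same libraries. For that reason the DEX values of these 2 genes are given as a description, and tests of DEX cover the others. Bulk RNA-seq was done on 20 tibiae of 3-month-old male C57BL/6J mice, 5 per group. The mice received subcutaneous distilled water (vehicle) or the synthetic glucocorticoid DEX at 1 mg/kg for 5 days. The left tibia was loaded along its axis at -13 N for 40 cycles per session, on days 1 and 3 per the sample labels, and the right tibia was not loaded, which gave Vehicle_Ctrl, Vehicle_Load, DEX_Ctrl and DEX_Load. Tibiae were collected 4 hours after the last session. The study's methods describe a further session and a later last day than the labels, so the loading history and the session from which the 4 hours run differ between these sources. No allele other than those of the strain is named for any group. Frozen tibia was pulverized for RNA, the sources used here do not say whether marrow was flushed, and genes of neutrophils, osteoblasts and skeletal muscle were all present. The comparisons ask whether DEX changed these genes in loaded and in unloaded bone, and whether loading changed them under either treatment.

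Acute phase proteins are secreted in large amounts in inflammation, mainly by the liver, where interleukin-6 family cytokines and glucocorticoids act together on their genes. Several are also made outside the liver, and haptoglobin, orosomucoid and LRG1 are known cargo of neutrophil granules. Metallothioneins are small cysteine-rich proteins that bind zinc and copper, and their genes respond to metals through the factor MTF1 and to glucocorticoids through the glucocorticoid receptor.

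Library totals ranged from 4641437 to 13032018 counts. Loaded DEX replicate 4 stood apart, with the lowest total and the lowest median correlation with its group (Spearman's rho 0.416 over the 500 most variable genes, against 0.442 to 0.651 in the other libraries). Unloaded DEX replicate 4 was left out of the tests because the study removed a DEX-4 library and shows 4 unloaded ones, although it does not name the limb and the unloaded library had the highest median correlation with its group, 0.651. Its values are still given below. The summed level of 10 neutrophil genes was 9084 to 16388 counts per 1000000 library counts (CPM) in DEX_Ctrl and 7259 to 17319 in DEX_Load, against 5001 to 7244 in Vehicle_Ctrl and 4292 to 6342 in Vehicle_Load. Reads on 1459 olfactory and vomeronasal receptor genes, which bone is not known to use, made up 1002 to 5949 CPM in DEX_Load and 237 to 844 in Vehicle_Load, and 727 to 2676 in DEX_Ctrl and 351 to 1254 in Vehicle_Ctrl. This background did not overlap between the loaded groups and did overlap between the unloaded groups. In the study the right tibia of each mouse was its own unloaded control, so loaded and unloaded libraries of a treatment share mice. The labels and the study's methods do not say which number marks which mouse. The loading and interaction fits therefore treat the libraries as independent, and all p-values measure only the spread between these libraries.

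RefSeq promoter windows on GRCm38.p6 were found for 7 of the 10 genes (Serpina3n, Saa3, Lrg1, Mt1, Mt2, C3 and Cp, the last with 2 starts). The 250 bases before the start are shown for 4 of them. Serpina3n and Mt1 are shown for their glucocorticoid response element, Mt2 for its metal response elements and Saa3 because it held the most C/EBP sites of these genes. Capitals mark every match on either strand to the glucocorticoid response element GNACANNNTGTNC, the metal response element core TGCACNC or TGCGCNC, the C/EBP site TTNNGNAA, the STAT site TTCNNNGAA, the NF-kappaB site GGGNNTTNCC or the TATA box TATAAA. No matches overlapped in the windows shown. Serpina3n lies at chr12:104406458-104406707 (plus strand), Mt1 at chr8:94178839-94179088 (plus strand), Mt2 at chr8:94172368-94172617 (plus strand) and Saa3 at chr7:46715677-46715926 (minus strand), each read 5′ to 3′ toward its own gene.
Serpina3n: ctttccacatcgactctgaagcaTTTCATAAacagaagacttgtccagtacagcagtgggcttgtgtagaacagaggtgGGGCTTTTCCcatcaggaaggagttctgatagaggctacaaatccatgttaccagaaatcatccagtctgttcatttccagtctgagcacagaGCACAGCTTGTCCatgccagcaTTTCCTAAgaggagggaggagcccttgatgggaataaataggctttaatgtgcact
Mt1: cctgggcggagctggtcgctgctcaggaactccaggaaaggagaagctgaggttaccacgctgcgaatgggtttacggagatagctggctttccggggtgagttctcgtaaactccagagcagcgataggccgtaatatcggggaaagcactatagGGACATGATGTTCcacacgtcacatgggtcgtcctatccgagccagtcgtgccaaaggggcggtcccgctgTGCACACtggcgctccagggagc
Mt2: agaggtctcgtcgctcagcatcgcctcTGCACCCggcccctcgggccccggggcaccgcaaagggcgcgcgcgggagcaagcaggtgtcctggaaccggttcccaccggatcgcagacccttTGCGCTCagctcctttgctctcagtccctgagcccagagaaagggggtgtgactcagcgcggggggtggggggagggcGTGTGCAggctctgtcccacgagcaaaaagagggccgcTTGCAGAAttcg
Saa3: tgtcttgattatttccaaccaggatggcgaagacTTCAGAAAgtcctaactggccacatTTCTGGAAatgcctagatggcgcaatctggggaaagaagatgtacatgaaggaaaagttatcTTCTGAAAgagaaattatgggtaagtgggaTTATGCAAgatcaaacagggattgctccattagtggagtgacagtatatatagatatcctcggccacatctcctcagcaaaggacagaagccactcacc

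The glucocorticoid response element, which 0.387% of 32851 promoter windows of this length hold, was matched in Serpina3n (GCACAGCTTGTCC, 78 to 66 bases before the start) and in Mt1 (GGACATGATGTTC, 94 to 82 bases before it). The Mt2 window held 3 matches to the metal response element core, a number that 1.26% of windows reach, and the Mt1 window held 1, where 21.4% of windows hold at least 1. The NF-kappaB site was matched in Serpina3n alone among the 7 genes, and 4.11% of all windows hold it. C/EBP sites were matched in Serpina3n, Saa3, Mt2, C3 and Cp, with 4 in Saa3 and 3 in C3, and in 36.8% of all windows. No member window matched the STAT site, which 7.02% of windows hold, and the TATA box, which 12.4% hold, was matched only at 1 start of Cp. A match is a description of the letters in this window. Sequence past the RefSeq start used was not searched. The Mt1 window ends at 94179088, at the upstream end of the annotated gene (94179082 to 94180327). Elements that serve a start further into the gene would thus not be counted, and 1 match is not a count for the whole Mt1 promoter.

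Compared per length, as transcripts per 1000000 transcripts (TPM) over annotated exons, the genes spanned a wide range in Vehicle_Ctrl. Hp was at 218 ± 55.8 TPM (SD, n = 5), C3 at 149 ± 51.5, Mt1 at 75.2 ± 11.4, Mt2 at 51.8 ± 23.4, Lrg1 at 43.7 ± 11.7 and Cp at 38.1 ± 6.92. In this order each of these genes overlapped its neighbour across libraries. Serpina3n at 21.7 ± 5.61 TPM and Orm1 at 12.0 ± 1.56 stood below, without overlap with the gene above them. Serpina3m at 1.10 ± 0.411 TPM and Saa3 at 0.697 ± 0.379 were the lowest and overlapped each other. In DEX_Load the highest mean was again that of Hp at 658 ± 156 TPM, without overlap with C3 at 316 ± 119, whereas Mt2 at 310 ± 186 overlapped Hp and was above it in replicate 1 (625 against 534 TPM). Mt1 (262 ± 95.1), Serpina3n (158 ± 42.2) and Lrg1 (144 ± 48.3) followed by mean. In TPM, Serpina3n was thus below Cp in each Vehicle_Ctrl library and, at 95.6 to 197 against 27.5 to 42.3, above Cp in each DEX_Load library. These ranks depend on the length used, the union of all annotated exons, 2064 bases for Serpina3n and 9566 for Cp. CPM takes no length. On that scale Serpina3n was below Cp in loaded DEX replicates 1, 3 and 5 (140 against 144, 103 against 110 and 72.7 against 96.9). It was above Cp in replicates 2 and 4 (156 against 148 and 104 against 84.2).

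**Figure D1:**
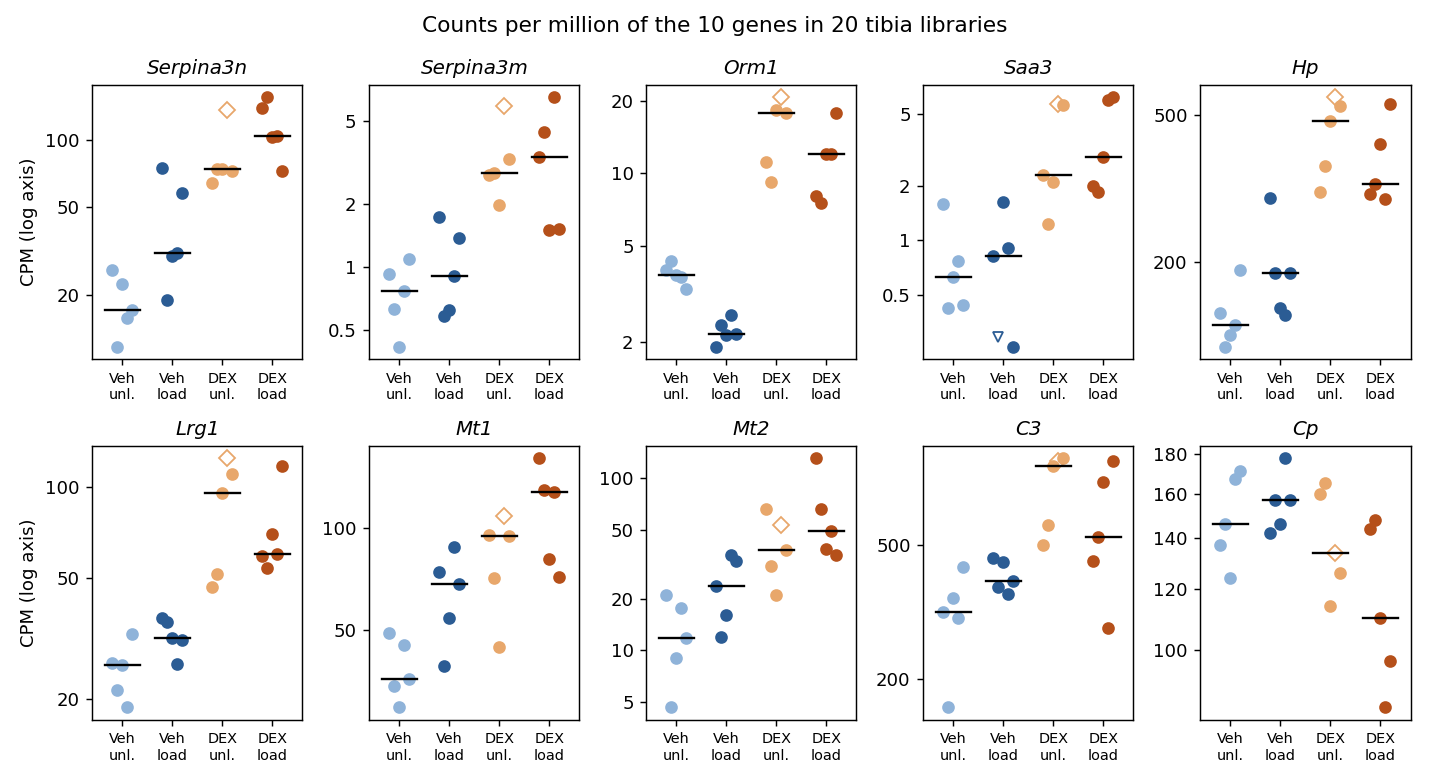
Each panel shows one of the 10 genes, with the normalised level in CPM on a log axis and the 4 groups from left to right (vehicle unloaded, vehicle loaded, DEX unloaded, DEX loaded). Each circle is a library (n = 5 per group), the bar is the median, the open diamond is unloaded DEX replicate 4, and the open triangle for Saa3 marks a library with 0 counts, drawn at the level of 3 counts. Orm1 lies between 1.91 and 4.35 CPM in vehicle libraries and between 7.54 and 20.7 in DEX libraries, whereas Cp shows no such separation.

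Serpina3n encodes an antichymotrypsin-type serpin that inhibits leukocyte serine proteases, and it lies on chromosome 12 at 104406729 to 104414329 (GRCm38, plus strand, GENCODE annotation). Its level in replicates 1, 2, 4, 5 and the unnumbered one was 25.9, 11.7, 22.5, 15.7 and 17.2 CPM in Vehicle_Ctrl and 74.9, 19, 29.9, 31.0 and 57.5 CPM in Vehicle_Load. In replicates 1 to 5 it was 64.3, 74.0, 73.9, 137 and 72.6 CPM in DEX_Ctrl and 140, 156, 103, 104 and 72.7 CPM in DEX_Load. Every unloaded DEX library was above every unloaded vehicle library, while in loaded tibiae the lowest DEX library (replicate 5) was below the highest vehicle library (replicate 1). The fitted DEX difference on the log2 scale was 1.96 ± 0.193 (SE) in unloaded and 1.48 ± 0.326 in loaded tibiae, as a description of the values it was chosen on. Loaded vehicle libraries ran from 19 to 74.9 CPM, and replicates 1 and unnumbered carried the high values.

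Serpina3m, a neighbouring member of the same serpin cluster (chromosome 12, 104338486 to 104394257), was present at low levels. The counts were 4 to 10 per library in Vehicle_Ctrl and 5 to 19 in Vehicle_Load, against 16 to 56 in DEX_Ctrl and 14 to 45 in DEX_Load. In CPM, the values were 0.928, 0.636, 0.419, 0.773 and 1.10 in Vehicle_Ctrl and 2.77, 2.82, 1.98, 5.90 and 3.28 in DEX_Ctrl. DEX libraries were above all vehicle libraries in unloaded bone, and the fitted difference there was 1.83 ± 0.369 on the log2 scale. In loaded bone the values were 1.73, 0.586, 0.626, 0.905 and 1.38 CPM with vehicle and 3.35, 4.41, 1.50, 6.46 and 1.52 CPM with DEX. These groups overlapped, and the fitted difference was 1.73 ± 0.503. Serpina3m passed the filter on low counts only through the DEX libraries where it was higher (2 of 5 loaded and 0 of 5 unloaded vehicle libraries were past its cutoff), so these fits are given as a description. With no filter on low counts, the difference was 1.77 ± 0.452 in unloaded and 1.46 ± 0.471 in loaded tibiae (adjusted p = 0.0187 and 0.0286, edgeR's quasi-likelihood test with Benjamini-Hochberg adjustment over all genes). The median difference over all genes in this unfiltered fit was itself 0.20 in unloaded and 0.77 in loaded tibiae. In loaded tibiae it called 6817 of 44681 genes higher and 2199 lower. That fit was not repeated without single libraries. With the filter, adjusted p was above 0.05 in loaded tibiae without DEX replicate 1 or 4 or vehicle replicate 2, 4 or unnumbered (up to 0.0677), and in unloaded tibiae without DEX replicate 3 (0.0569). Serpina3m counts were 1.45% to 6.19% of those of Serpina3n in DEX_Load and 1.86% to 6.41% in Vehicle_Ctrl, and reads shared between these related serpins could be divided between them by the authors' expectation-maximization counting.

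Of 9 other Serpina3 genes, 4 were tested in both DEX comparisons, and their median difference was 0.32 in loaded and 0.65 in unloaded tibiae on the log2 scale. None of the 4 was called in loaded tibiae, where the most abundant, Serpina3g and Serpina3c, had -0.21 ± 0.212 (edgeR adjusted p = 0.497) and 0.91 ± 0.315 (0.0558). Serpina3c rose in unloaded tibiae by 1.07 ± 0.239 (0.0245). Among 9 proteases of the kind that such serpins act on and their neighbours in granules, 3 rose and none fell in loaded tibiae. These were the neutrophil granule proteases Prtn3 (1.07 ± 0.286, edgeR adjusted p = 0.0217), Ctsg (0.96 ± 0.285, 0.0325) and Elane (0.92 ± 0.224, 0.0159). In unloaded tibiae 5 of the 8 tested rose, Prtn3, Ctsg and Elane among them, and the median difference was 1.01, against 0.21 in loaded tibiae. Over all genes, 12.9% were called higher and 8.35% lower in loaded tibiae, and 2.86% and 3.99% in unloaded ones.

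Orm1 encodes orosomucoid, a plasma protein that binds basic and neutral lipophilic ligands (chromosome 4, 63344560 to 63348163, plus strand). It was at 3.98, 4.35, 3.77, 3.73 and 3.30 CPM in Vehicle_Ctrl and at 11.2, 9.24, 18.3, 20.7 and 17.8 CPM in DEX_Ctrl. In loaded tibiae it was at 1.91, 2.34, 2.13, 2.59 and 2.16 CPM with vehicle and at 8.05, 7.54, 12.0, 12.1 and 17.9 CPM with DEX. Vehicle libraries lay close together and DEX libraries were all higher, with the lowest DEX value, 7.54, above the highest vehicle value, 4.35. The fitted difference, given as a description, was 1.90 ± 0.237 in unloaded and 2.42 ± 0.264 in loaded tibiae. These levels rest on 17 to 41 counts per vehicle library and 60 to 196 per DEX library.

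Saa3 encodes the serum amyloid A made locally by macrophages and adipocytes (chromosome 7, 46711998 to 46715700, minus strand), and it was the lowest of the genes by mean TPM, overlapping Serpina3m. TPM divides by 2606 bases of exon for Saa3 and 1719 for Serpina3m, and in CPM both had a mean of 0.771 in Vehicle_Ctrl. Unloaded vehicle libraries held 1.59, 0.424, 0.628, 0.773 and 0.440 CPM and unloaded DEX libraries 2.29, 1.24, 2.10, 5.69 and 5.62 CPM. Loaded vehicle libraries held 0.820, 0.00, 1.63, 0.905 and 0.259 CPM and loaded DEX libraries 2.01, 1.86, 2.89, 5.98 and 6.18 CPM. The loaded groups did not overlap, and replicates 4 and 5 were the highest under DEX in both limbs. The fitted difference of Saa3 was 2.45 ± 0.699 in loaded and 1.92 ± 0.537 in unloaded tibiae. Saa3 too passed the filter on low counts only through the DEX libraries, with 1 of 5 vehicle libraries past the cutoff in each limb, so these fits are given as a description. With no filter, the difference was 2.24 ± 0.568 in loaded and 1.88 ± 0.508 in unloaded tibiae (edgeR adjusted p = 0.00727 and 0.0278). All genes in these unfiltered fits had a median difference of 0.77 in loaded and 0.20 in unloaded tibiae. With the filter, adjusted p in loaded tibiae was above 0.05 without DEX replicate 5, vehicle replicate 1 or the unnumbered one (up to 0.0647). In unloaded tibiae it was 0.0514 over all libraries tested and ran from 0.0348 without vehicle replicate 1 to 0.177 without DEX replicate 5, where the difference was 1.27. These adjusted p-values describe filtered fits and are not read as calls.

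Levels per kilobase of annotated exon, which depend on the 2606 bases taken for Saa3 and 1719 for Serpina3m, were set beside the receptor background. Saa3 was 0.740 to 3.16 times the background of the same library in Vehicle_Ctrl and 1.48 to 9.05 times in DEX_Load. It had 0 counts in loaded vehicle replicate 2, where 3 counts would have been 0.293 CPM. In Vehicle_Load it was 0.00 to 5.93 times and in DEX_Ctrl 1.78 to 16.1 times. Serpina3m was 1.68 to 9.88 times the background in Vehicle_Ctrl and 3.27 to 14.2 times in DEX_Ctrl, with medians of 2.92 and 9.93. In loaded tibiae it was 2.33 to 19 times with vehicle and 2.56 to 13.9 times with DEX, and there the median was lower under DEX, 3.42 against 6.82. The other 8 genes were at least 8.02 times above it in every library. The part of this background in the values of Saa3 and Serpina3m was not tested further than by adding the log2 background as a covariate to the filtered fit. With it, adjusted p in loaded tibiae was 0.582 for Saa3 (difference 1.27 ± 0.853) and 0.555 for Serpina3m, and in unloaded tibiae 0.0449 (2.07 ± 0.601) and 0.0118 (1.95 ± 0.391). Both genes entered that fit through DEX libraries, so these values too are a description and not read as calls.

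Hp encodes haptoglobin, which captures free haemoglobin (chromosome 8, 109575128 to 109579172, minus strand). It measured 145, 118, 127, 135 and 190 CPM in Vehicle_Ctrl and 309, 364, 480, 557 and 527 CPM in DEX_Ctrl, and rose by 1.58 ± 0.201 in unloaded tibiae (edgeR adjusted p = 0.00386). In loaded tibiae it measured 298, 187, 150, 144 and 187 CPM with vehicle and 305, 324, 416, 295 and 534 CPM with DEX. The only overlap was between loaded vehicle replicate 1 at 298 and loaded DEX replicate 4 at 295, and the rise was 1.00 ± 0.230 (adjusted p = 0.0130).

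Lrg1 encodes leucine-rich alpha-2-glycoprotein, a secreted modulator of TGF-beta signalling (chromosome 17, 56119678 to 56122001, minus strand). Levels were 26.3, 21.5, 25.9, 18.8 and 32.7 CPM in Vehicle_Ctrl and 46.6, 51.6, 95.6, 124 and 110 CPM in DEX_Ctrl. In loaded tibiae they were 36.9, 35.9, 31.7, 26.1 and 31.4 CPM with vehicle and 59.0, 54.0, 69.7, 60.2 and 117 CPM with DEX. Neither pair of groups overlapped, and Lrg1 rose 3.10-fold in unloaded (SE 0.268 on the log2 scale, edgeR adjusted p = 0.00931) and 2.29-fold in loaded tibiae (SE 0.201, adjusted p = 0.00313). Its call held without any one library in both comparisons, as did that of Hp.

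Among 8 partners of LRG1 in TGF-beta signalling, none rose under DEX, and their median difference was -0.27 in loaded and -0.09 in unloaded tibiae. Of all genes, 12.9% were called higher and 8.35% lower in loaded tibiae, and 2.86% and 3.99% in unloaded ones. In loaded tibiae the receptor Tgfbr2 fell by 0.62 ± 0.166 and the signal transducer Smad5 fell by 0.48 ± 0.114 (edgeR adjusted p = 0.0216 and 0.0145). In unloaded tibiae 1 of the 8, Tgfbr2, fell, by 0.49 ± 0.127 (adjusted p = 0.0403).

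C3 encodes the central component of complement (chromosome 17, 57203970 to 57228136, minus strand). It was at 317, 165, 349, 304 and 432 CPM in Vehicle_Ctrl and 502, 575, 858, 891 and 908 CPM in DEX_Ctrl, with no overlap, and rose by 1.21 ± 0.267 (edgeR adjusted p = 0.0228). That call was lost without unloaded DEX replicate 3 (0.0975) or 5 (0.0527) or unloaded vehicle replicate 5 (0.0561). In loaded tibiae C3 was at 460, 376, 446, 358 and 392 CPM with vehicle and 449, 530, 772, 283 and 893 CPM with DEX. Loaded DEX replicate 4 was below every loaded vehicle library. The difference was 0.57 ± 0.261 (adjusted p = 0.131), and without that library it was 0.74 (0.0283).

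Among 25 other complement genes tested in loaded tibiae, 2 rose and 6 fell, beside 12.9% of all genes called higher and 8.35% lower. The terminal component C7 rose by 2.43 ± 0.608 and the C5a receptor C5ar1 by 1.24 ± 0.207 (edgeR adjusted p = 0.0173 and 0.00303). The alternative pathway factor Cfb fell by 1.13 ± 0.274, the integrin subunit Itgax by 0.98 ± 0.260, and the C1 proteases C1ra and C1s1 by 0.84 ± 0.204 and 0.71 ± 0.213 (adjusted p = 0.0155, 0.0216, 0.0156 and 0.0341). In unloaded tibiae 3 rose, C5ar1 among them (1.46 ± 0.186, 0.00386), and 1 fell, beside 2.86% and 3.99% of all genes. The list's median difference was -0.33 in loaded and -0.19 in unloaded tibiae.

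Cp encodes ceruloplasmin, the copper-carrying ferroxidase (chromosome 3, 19957054 to 20009145, plus strand). It was at 137, 146, 124, 167 and 171 CPM in Vehicle_Ctrl and 160, 165, 114, 134 and 126 CPM in DEX_Ctrl, a difference of -0.07 ± 0.148 (edgeR adjusted p = 0.812). In loaded tibiae it was at 142, 157, 146, 178 and 157 CPM with vehicle and 144, 148, 110, 84.2 and 96.9 CPM with DEX. The groups overlapped through loaded DEX replicates 1 and 2, and the difference was -0.38 ± 0.162 (adjusted p = 0.105). Without loaded DEX replicate 2 it was -0.51 (0.0391). Among 13 other genes of haemoglobin, iron and copper handling, none was called in loaded tibiae and the median difference was -0.32. The most abundant ones by mean CPM, Ltf, the iron-binding lactoferrin of neutrophil granules, and the haem-haemopexin receptor Lrp1, had 0.79 ± 0.380 (0.147) and -0.75 ± 0.266 (0.0607). In unloaded tibiae, with a median of 0.02, only Ltf was called, and it rose by 1.29 ± 0.334 (0.0401). Shares called over all genes were 12.9% higher and 8.35% lower in loaded tibiae, and 2.86% and 3.99% in unloaded ones.

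Mt1 and Mt2 lie next to each other on chromosome 8 (94179082 to 94180327 and 94172664 to 94173568, both on the plus strand) and encode the widely expressed metallothioneins. Mt1 was at 49.1, 34.2, 29.6, 45.2 and 35.9 CPM in Vehicle_Ctrl and at 95.1, 71.0, 44.5, 108 and 94.3 CPM in DEX_Ctrl. In loaded tibiae it was at 74.0, 39.2, 54.1, 87.4 and 68.4 CPM with vehicle and at 160, 129, 80.6, 127 and 71.5 CPM with DEX. Both comparisons overlapped, through unloaded DEX replicate 3 and through loaded DEX replicates 3 and 5. Mt1 rose by 0.99 ± 0.223 in unloaded (edgeR adjusted p = 0.0243) and 0.85 ± 0.253 in loaded tibiae (0.0316). The loaded call was lost without any one of loaded DEX replicates 1 and 4 and loaded vehicle replicates 1, 2, 4 and unnumbered (adjusted p up to 0.0765), and the unloaded one without any one of unloaded DEX replicates 1 and 5 and unloaded vehicle replicates 2, 4 and 5 (up to 0.0562).

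Mt2 was at 21.1, 4.67, 9.01, 17.6 and 11.8 CPM in Vehicle_Ctrl and at 65.9, 30.8, 20.9, 53.7 and 38.5 CPM in DEX_Ctrl. In loaded tibiae it was at 23.7, 12.0, 16.0, 35.7 and 32.9 CPM with vehicle and at 131, 66.1, 39.1, 49.4 and 35.9 CPM with DEX. The loaded groups were separated by a narrow margin, 35.7 against 35.9, and loaded DEX replicate 1 was far above the rest. Mt2 rose by 1.45 ± 0.374 in loaded (edgeR adjusted p = 0.0192) and 1.62 ± 0.388 in unloaded tibiae (0.0302). The loaded call held without any one library, and the unloaded call was lost without unloaded DEX replicate 1, 3 or 5 or unloaded vehicle replicate 4 or 5 (up to 0.0718), or with the receptor background as a covariate (1.31, 0.0856). The ratio of Mt1 to Mt2 counts had a median of 3.05 in Vehicle_Ctrl and 3.12 in Vehicle_Load, against 2.13 in DEX_Ctrl and 1.99 in DEX_Load, and the ranges overlapped (2.33 to 7.32 in Vehicle_Ctrl, 2.08 to 3.38 in Vehicle_Load, 1.44 to 2.45 in DEX_Ctrl and 1.23 to 2.58 in DEX_Load).

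Of 12 other genes of metallothionein and zinc handling tested in loaded tibiae, none rose and 3 fell, with a median difference of -0.23. These were zinc importers, Slc39a1 (fell by 0.69 ± 0.174), Slc39a10 (fell by 0.60 ± 0.141) and Slc39a14 (fell by 0.57 ± 0.171), with edgeR adjusted p = 0.0177, 0.0141 and 0.0330. In unloaded tibiae Slc39a10 alone was called and fell by 0.49 ± 0.128 (0.0417), with a median of 0.03. Of 5 textbook glucocorticoid-induced genes, the receptor co-chaperone Fkbp5 and the transcription factor Zbtb16 rose in loaded tibiae by 0.87 ± 0.175 and 1.01 ± 0.213 (0.00777 and 0.00930). In unloaded tibiae none of the 5 rose, Fkbp5 had 0.81 ± 0.236 (0.0603) and the kinase Sgk1 fell by 0.63 ± 0.152 (0.0318). Beside both lists, 12.9% of all genes were called higher and 8.35% lower in loaded tibiae, and 2.86% and 3.99% in unloaded ones.

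Counts over the genes leave out Serpina3n and Orm1, which were chosen on these values, and Serpina3m and Saa3, which passed the filter only through DEX libraries. Of the other 6 (Hp, Lrg1, Mt1, Mt2, C3 and Cp), 4 rose under DEX in loaded tibiae (Hp, Lrg1, Mt1 and Mt2) and none fell. Over all 19780 genes tested there, 12.9% were called higher and 8.35% lower. In unloaded tibiae 5 of the 6 rose (Hp, Lrg1, Mt1, Mt2 and C3) and none fell, against 2.86% called higher and 3.99% lower over 19738 genes. Groups did not overlap for 2 of the 6 in loaded tibiae (Lrg1 and Mt2), with a background of 7.66% of genes higher without overlap, and for 3 of the 6 in unloaded tibiae (Hp, Lrg1 and C3), with a background of 4.45%. The median difference of the 6 was 0.93 on the log2 scale in loaded and 1.40 in unloaded tibiae, beside 0.00 and 0.03 over all genes. Other marker lists moved with DEX too. All 6 osteoblast genes fell in loaded and 4 of the 6 in unloaded tibiae, 5 of 6 B cell genes fell in loaded tibiae and 2 in unloaded ones, and 2 of 7 macrophage genes fell in loaded tibiae. Of 7 adipocyte genes 2 rose in each limb and 1 fell in unloaded tibiae. Of the chondrocyte genes 3 of 4 fell in loaded tibiae (median -3.46) and none in unloaded ones (-0.61). Periosteum and tendon genes fell for 4 of 5 in loaded (median -1.53) and 3 of 5 in unloaded tibiae (-1.24), and osteocyte genes for 3 of 5 and 2 of 4, while 1 osteocyte gene, Fgf23, was called higher in loaded tibiae (1.63 ± 0.478, adjusted p = 0.0305). Of 7 skeletal muscle genes 1 rose in loaded tibiae (median 0.48) and none was called in unloaded ones (median -1.88), where their summed level was 7977 to 35263 CPM in Vehicle_Ctrl and 1432 to 16630 CPM in DEX_Ctrl. The summed osteoblast level was 29520 to 97912 CPM in vehicle libraries and 3110 to 23696 CPM in DEX libraries. In bulk tissue a change in the number of cells of a type and a change in RNA per cell cannot be told apart.

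With the log2 receptor background as a covariate, none of the 6 was called in loaded tibiae (edgeR), and 30 genes (0.152%) were called in all. Background and treatment did not overlap there and cannot be told apart. The differences themselves became larger for Hp (1.61 ± 0.339, adjusted p = 0.0778), Lrg1 (1.50 ± 0.325, 0.0858) and C3 (1.14 ± 0.377, 0.223) and smaller for Mt2 (1.14 ± 0.629, 0.486) and Mt1 (0.47 ± 0.394, 0.684), and Cp had -0.24 ± 0.256 (0.761). In unloaded tibiae, where background overlapped between the groups, 4 of the 6 were called with the covariate (Hp, Lrg1, Mt1 and C3), beside 13.1% of all genes.

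Without loaded DEX replicate 4, 4 of the 6 were called higher in loaded tibiae, C3 in place of Mt1, beside 15.2% of all genes called. Leaving out any other single library left 3 to 5 of the 6 called there, Hp, Lrg1 and Mt2 each time, beside 12.7% to 28% of all genes. The 5 were reached without loaded DEX replicate 2 and included Cp, called lower. In unloaded tibiae 3 of the 6 were called without DEX replicate 1 (6.41% of all genes), without DEX replicate 3 (0.633%) and without vehicle replicate 4 (4.26%). Without DEX replicate 5 (5.24%) or vehicle replicate 5 (2.72%) Hp and Lrg1 were called, 2 of the 6. With unloaded DEX replicate 4 kept, 5 of the 6 were called, beside 15.2% of all genes.

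**Figure D2:**
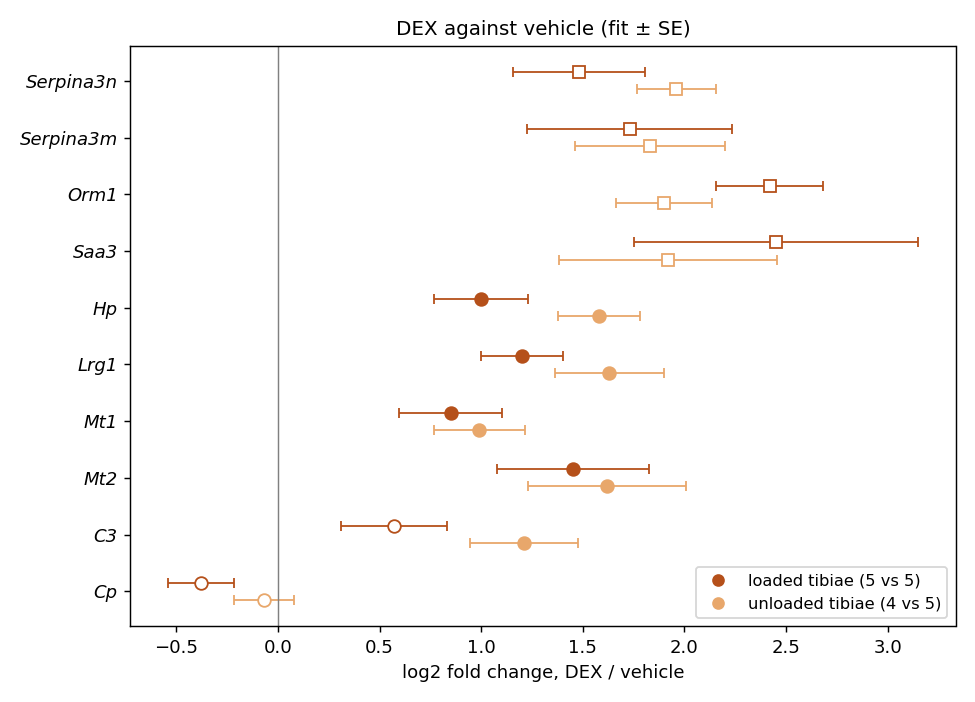
The horizontal axis gives the fitted log2 fold change of DEX over vehicle and the bars its SE, for loaded (5 against 5 libraries, dark) and unloaded tibiae (4 against 5, light). Filled circles passed an adjusted p of 0.05, open circles did not, and open squares mark genes whose fit is a description, Serpina3n and Orm1 because they were chosen on it and Serpina3m and Saa3 because they passed the filter only through DEX libraries. Values run from -0.38 for Cp to 2.45 for Saa3 in loaded tibiae, and Cp is the only gene left of 0.

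The wider list of acute phase proteins and their inducers held calls in both directions. Of 37 such genes, 21 were tested, and 4 rose and 2 fell in loaded tibiae. Over all genes there, 12.9% were called higher and 8.35% lower. The siderophore-binding Lcn2 rose by 1.73 ± 0.255, the cytokine Osm by 1.12 ± 0.345, the interleukin-6 receptor Il6ra by 0.57 ± 0.132 and the transcription factor Cebpd by 0.55 ± 0.120 (edgeR adjusted p = 0.00170, 0.0368, 0.0129 and 0.0104). The hyaluronan-binding Tnfaip6 fell by 1.58 ± 0.318 and the pentraxin Ptx3 by 1.13 ± 0.288 (0.00793 and 0.0183). In unloaded tibiae 5 rose and 1 fell, beside 2.86% of all genes called higher and 3.99% lower. Lcn2, Osm and Il6ra rose there too (1.32 ± 0.262, 1.13 ± 0.241 and 0.95 ± 0.200, with adjusted p = 0.0160, 0.0206 and 0.0198). The list's median difference was 0.10 in loaded and 0.27 in unloaded tibiae. The summed level of 8 hepatocyte genes was 0.770 to 5.95 CPM in vehicle libraries and 1.87 to 20.6 CPM in DEX libraries, against 7.54 to 20.7 CPM for Orm1 alone in DEX libraries. Apob was the highest of them by mean, with 1.33 ± 1.31 CPM in Vehicle_Load and 4.53 ± 3.73 CPM in DEX_Load (SD, n = 5), and was the only hepatocyte gene tested (1.84 ± 0.699 in loaded tibiae, adjusted p = 0.0751, and 0.90 ± 0.637 in unloaded ones, 0.405). Serpina1a reached 5.67 CPM and Apoa1 2.83 CPM, albumin (Alb) did not exceed 0.787 CPM, and Apoa2 had 0 counts in every loaded library. The part of these genes in the values above was not tested.

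The genes differed in whether they followed each other from library to library. On deviations of log2 CPM from the group means over all 20 libraries, Mt1 and Mt2 had a Pearson's r of 0.84, Serpina3m and Mt1 of 0.74, Serpina3n and Serpina3m of 0.62, and Serpina3n had r of 0.53 with Mt1 and 0.55 with Mt2. Hp and Lrg1 had r of 0.82, Hp and C3 of 0.75, Orm1 and Lrg1 of 0.72, and Lrg1 and C3 of 0.71. Across these sets the values were low or negative, such as -0.30 for Orm1 and Mt1, -0.23 for Orm1 and Serpina3n and -0.21 for Hp and Mt1. Cp had r of -0.68 with Orm1. Libraries share depth and tissue composition, so these are descriptions, and without both DEX replicate 4 libraries the pairs named first kept r of 0.86, 0.75 and 0.69.

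**Figure D3:**
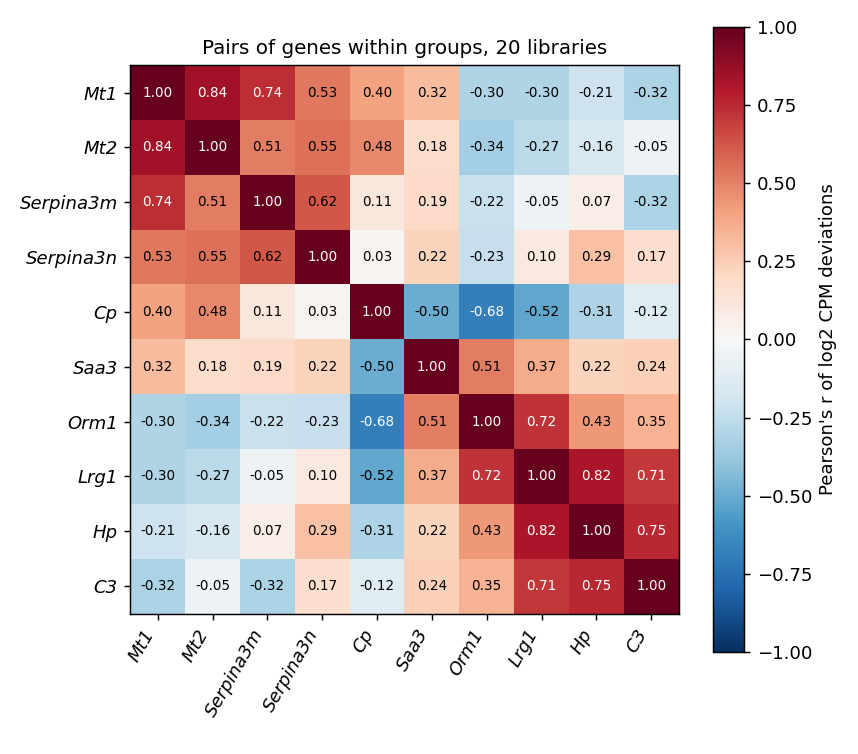
The grid shows Pearson's r between each pair of the 10 genes, from deviations of log2 CPM from the group means over 20 libraries, with red for positive and blue for negative values on a scale from -1 to 1. Mt1, Mt2, Serpina3m and Serpina3n form a red square with r of 0.51 to 0.84, and Orm1, Lrg1, Hp and C3 another with 0.35 to 0.82.

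The same split appeared beside the neutrophil genes (Elane and Ltf are in 2 lists). Of these, 9 of 10 rose under DEX in loaded and 8 of 10 in unloaded tibiae, beside 12.9% and 2.86% of all genes. Within groups, the summed level of those 10 genes had r of 0.83 with Orm1, 0.71 with Lrg1, 0.52 with C3, 0.45 with Hp and 0.42 with Saa3 over 20 libraries. With Serpina3n it was -0.40, with Serpina3m -0.42, with Mt1 -0.36, with Mt2 -0.28 and with Cp -0.43. With the receptor background, r was -0.59 for C3, -0.58 for Hp and -0.40 for Lrg1, 0.41 for Saa3, and 0.11 for Orm1. Per 1000 CPM of neutrophil genes, Orm1 was 0.866 to 1.31 CPM in DEX_Load and 1.02 to 1.42 in DEX_Ctrl, beside 0.335 to 0.460 in Vehicle_Load and 0.505 to 0.754 in Vehicle_Ctrl, a description of a gene chosen for its DEX values. Lrg1 on the same scale overlapped in both limbs, at 5.50 to 7.44 in DEX_Load and 4.64 to 8.60 in Vehicle_Load, and at 4.54 to 8.52 in DEX_Ctrl and 2.99 to 5.17 in Vehicle_Ctrl. Hp overlapped in loaded tibiae, at 30.8 to 44.7 and 23.7 to 69.4, and did not in unloaded ones, at 30.1 to 40.1 and 18.3 to 29.1. Serpina3n was at 4.20 to 21.6 and 3.07 to 17.5 in loaded and at 4.43 to 9.41 and 1.81 to 4.50 in unloaded tibiae. C3 overlapped in both limbs and had a lower median under DEX in loaded tibiae, 51.6 against 70.3, and a higher one in unloaded tibiae, 58.4 against 48.3. Mt1 and Mt2 overlapped in both limbs. Cp did not overlap and was lower under DEX, at 5.59 to 20.3 against 23.0 to 33.2 in loaded and 7.68 to 18.1 against 18.9 to 26.5 in unloaded tibiae. The neutrophil sum that divides it was higher under DEX, so a gene with an unchanged level comes out lower on this scale. In CPM, Cp was not called in loaded (-0.38 ± 0.162, edgeR adjusted p = 0.105) or unloaded tibiae (-0.07 ± 0.148, 0.812). The part of neutrophil RNA in these differences was not tested, and the same holds for the other marker lists.

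**Figure D4:**
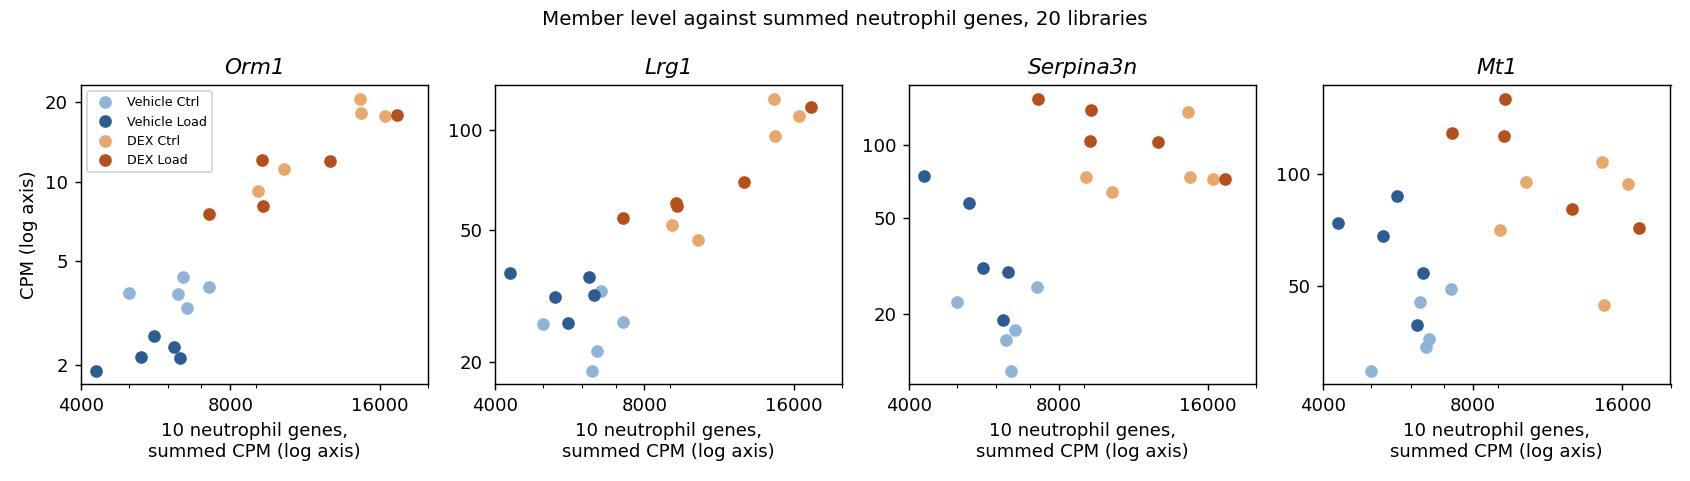
Each circle is a library (n = 20, coloured by group), with the summed CPM of 10 neutrophil genes on the horizontal log axis and the CPM of Orm1, Lrg1, Serpina3n or Mt1 on the vertical log axis. Orm1 rises with the neutrophil sum across the DEX libraries and is at 17.9 CPM in the library with the highest sum, 17319, where Serpina3n is at 72.7 CPM, its lowest in DEX_Load.

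Over all 20 libraries pooled, the genes whose log2 CPM was most like that of Orm1 were Lcn2 (r = 0.954), Gca (0.953), Alox5ap (0.951), Fpr2 (0.941) and Kcnh7 (0.938), among 21043 genes with a mean of at least 1 CPM. For Serpina3n they were Cyb561 (0.882), F830208F22Rik (0.868), Ms4a8a (0.856), Gm37570 (0.855) and Ggt5 (0.848). For Mt1 they were Gm47621 (0.869), Vipr1 (0.818), Slc1a3 (0.813), Deptor (0.811) and Gm44284 (0.811). These values include the differences between the 4 groups and the tissue mix that libraries share.

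Loading gave no call for any of these genes. In vehicle-treated mice 8 of the 10 were tested, since Serpina3m and Saa3 did not pass the filter on low counts, and 0.00% of 17982 genes were called by edgeR. At an unadjusted p under 0.05 there were 5 of the 8 (Serpina3n, Orm1, Lrg1, Mt1 and Mt2), beside 9.86% of all genes, and DESeq2 called none of the 8 and 141 genes in all. Serpina3n had the largest difference, 1.17 ± 0.336 on the log2 scale (adjusted p = 0.336), with loaded vehicle replicates 1 and unnumbered at 74.9 and 57.5 CPM against at most 25.9 in unloaded tibiae. Mt1 had 0.71 ± 0.214 (0.359) and Mt2 0.89 ± 0.384 (0.490). Orm1 was lower in every loaded than in every unloaded vehicle library, 1.91 to 2.59 against 3.30 to 4.35 CPM, and its difference was -0.82 ± 0.201 (adjusted p = 0.246), with 0.628% of all genes lower without overlap. Hp, Lrg1, C3 and Cp had 0.40 ± 0.190, 0.34 ± 0.139, 0.35 ± 0.190 and 0.04 ± 0.116 (adjusted p from 0.474 to 0.916).

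In DEX-treated mice all 10 were tested and none was called, nor was any of 22541 genes (0.00%), with edgeR, and DESeq2 called none in all either. At an unadjusted p under 0.05 Serpina3n stood alone among the 10, beside 4.25% of all genes, with 0.66 ± 0.213 (adjusted p = 0.733). Mt1 and Mt2 had 0.54 ± 0.267 and 0.70 ± 0.381 and Orm1 -0.33 ± 0.298 (each 0.733), the same directions as with vehicle. Hp, Lrg1 and C3 had -0.19 ± 0.273, -0.11 ± 0.320 and -0.30 ± 0.357, where vehicle-treated mice had values above 0, and with the background covariate these 3 became 0.03, 0.14 and 0.03. Cp had -0.30 ± 0.208, Saa3 0.37 ± 0.511 and Serpina3m 0.28 ± 0.433, the last at -0.02 without loaded DEX replicate 4. The median difference of the members was 0.38 for the 8 tested with vehicle and 0.08 for the 10 tested with DEX, beside 0.00 and 0.02 over all genes. No marker list held a call for loading either. Median differences for loading with vehicle were -1.09 over 7 skeletal muscle genes, 1.45 over 4 chondrocyte genes and -0.18 over 10 neutrophil genes, and with DEX they were 1.06, -0.39 and -0.24, and the part of these genes in the members' values was not tested. An adjusted p that misses the threshold does not show that loaded and unloaded tibiae had equal levels.

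**Figure D5:**
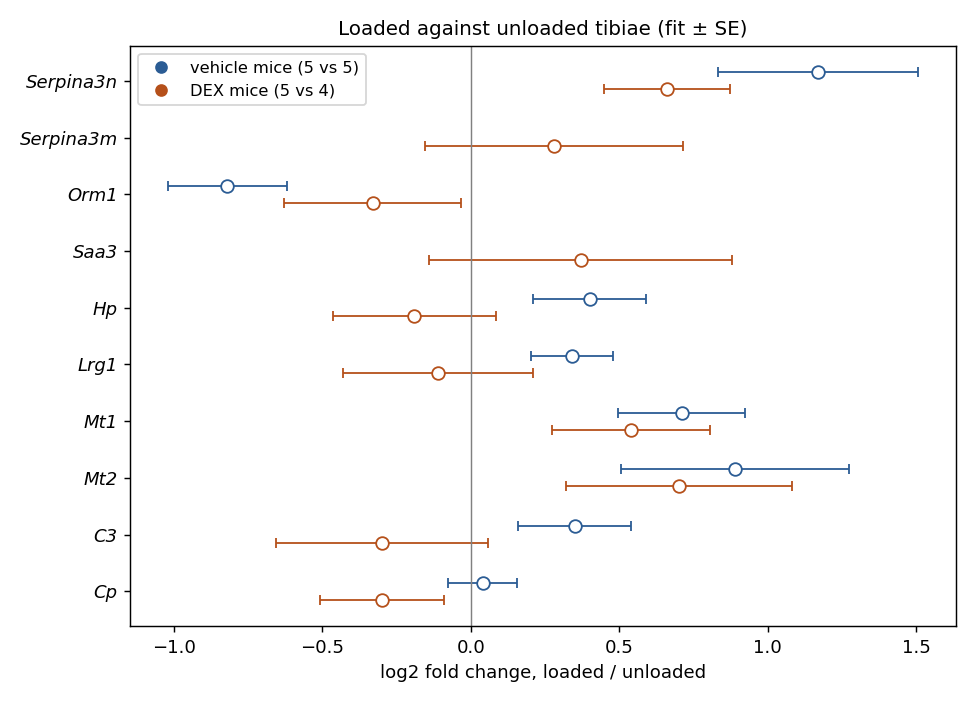
The horizontal axis gives the fitted log2 fold change of loaded over unloaded tibiae and the bars its SE, in vehicle-treated (5 against 5 libraries, blue) and DEX-treated mice (5 against 4, red-brown). All circles are open because none passed an adjusted p of 0.05, and Serpina3m and Saa3 have no vehicle value because they were filtered. Serpina3n, Mt1 and Mt2 lie right of 0 and Orm1 left of 0 under both treatments.

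The DEX difference was compared directly between loaded and unloaded tibiae as an interaction over 19 libraries. Serpina3n and Orm1, chosen on their DEX values, are again described and not tested. None of the other 8 genes was called, nor was any of 23653 genes (0.00%, edgeR), and none of the 8 had an unadjusted p under 0.05, beside 12.1% of all genes. DESeq2 called none of the 8 and 50 genes in all. C3 had the lowest value, -0.67 ± 0.407 on the log2 scale (loaded minus unloaded, adjusted p = 0.443), and Hp had -0.62 ± 0.332 (0.427). Serpina3n had -0.53 ± 0.422 and Orm1 0.47 ± 0.357. Mt1 and Mt2 had -0.18 ± 0.358 and -0.21 ± 0.580 (0.792 and 0.853), and the smallest SE among the 8, 0.231 for Cp, belonged to a difference of -0.35 (0.468).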

How the data were processed

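Total RNA of 20 mouse tibiae was made into libraries with a SMARTer kit for low input that keeps strand and depletes ribosomal RNA. Per the labels and the study's methods, the authors aligned reads with STAR 2.7.10a to GRCm38 and deposited RSEM 1.2.28 expected counts per gene. These expected counts, of which 10.6% to 14% per library were not whole, were rounded here. Of 54446 gene identifiers, 54409 were matched to the GENCODE annotation. Library totals of 4641437 to 13032018 limit precision most for Saa3 and Serpina3m, and intervals or floors (3 counts) cover counting error only.

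Groups came from the labels. Vehicle columns with a number that the labels do not give were kept as an unnumbered replicate of their group. Replicates differed by more than sampling noise (chi-square per gene 8.22 to 99.4), so that none was counted as a repeat.

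The members and gene lists were chosen with earlier results of these data known. Genes were filtered with filterByExpr, scaled by TMM and tested with edgeR 4.0.16 (quasi-likelihood F test, R 4.3.3), with Benjamini-Hochberg adjustment over all genes tested and a threshold of 0.05. The SE is the log2 fold change divided by the square root of F. Each comparison was fitted on its own groups, the interaction on all 4, and unloaded DEX replicate 4 was left out. CPM used TMM sizes over 22659 genes, with a prior count of 2 for log2 values, and TPM the union of exons. Named genes of a list were those called in loaded tibiae, at most 4 in each direction, or else the 2 most abundant, and genes called in unloaded tibiae were added after their values were seen. Alternatives were DESeq2 1.42.0, other scaling and filters, all groups in 1 model, a replicate block, a background covariate and leaving out libraries. The scripts were tested on simulated data.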

Additional observations from a re-analysis of the deposited data

Results flagged for a closer look

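In 40 groups of 5 libraries (10 genes in 4 groups), 3 held a library whose gap to its nearest neighbour exceeded Dixon's 95% critical share of the group's range, where chance gives about 1 in 20 groups. Serpina3n was at 137 CPM in unloaded DEX replicate 4, against at most 74.0 CPM in the other libraries of that group, and this is the library that was left out of the tests. Hp was at 298 CPM in loaded vehicle replicate 1, against at most 187 CPM in the other loaded vehicle libraries, and it is this value that was above loaded DEX replicate 4, at 295 CPM, the only overlap between the loaded groups. Lrg1 was at 117 CPM in loaded DEX replicate 5, against at most 69.7 CPM in the rest of that group, and the same library had the highest neutrophil sum of all, 17319 CPM. No cause of these 3 values was tested.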

How the results depend on the processing

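Of the 6 genes that passed the filter through vehicle libraries too, the 4 called for DEX in loaded tibiae became 0 with the covariate and 2 to 5 in the other settings, and the 5 in unloaded ones became 2 to 5. With Serpina3m and Saa3 added there were 6 in each limb, beside 21.3% of all genes called in loaded and 6.84% in unloaded tibiae. Both entered the filtered fits through DEX libraries, so counts that include them are a description and not read as calls. In loaded tibiae the count became 5 with no filter (20.2% of all genes) and 4 with at least 10 counts in every library (14.3%). It was 7 with all 4 groups in 1 model (35.7%) and 0 with the covariate (0.152%). Without 1 library it was 3 to 7 (12.7% to 28%). In unloaded tibiae it became 4 to 7 in the other settings (2.63% to 15.2%) and 3 to 7 without 1 library (0.633% to 9.60%). Loading and interaction gave 0 of these genes in every setting. Over all genes, the 4206 calls in loaded tibiae became 9016 with no filter (median log2 difference 0.77), 2203 with at least 10 counts, 8446 with all groups, 2326 with the block, 1120 in the same libraries without it and 30 with the covariate. The 1351 calls in unloaded tibiae became 2411 with DESeq2, 2922 with all 20 libraries, 2592 with the covariate, 520 with the block, 566 in the same libraries without it and 129 to 1867 without 1 library.

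The replicate number as a block called 2 of the 6 in loaded tibiae (Lrg1 and Mt2) and 5 in unloaded ones. The same libraries without the number in the model, an alternative chosen after seeing the data, gave 2 and 4. Of all genes, 11.7% and 2.63% were called with the block and 5.65% and 2.86% without it. Same-numbered vehicle libraries deviated from their group means with r of -0.30 to 0.34 and DEX ones with 0.03 to 0.36, and not every library was most like its own number, so that the numbers are not shown to pair limbs.

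Signs turned only where the reported difference was small and uncalled. For loading under DEX, the covariate gave 0.03 for Hp, 0.03 for C3 and 0.14 for Lrg1, and the block gave 0.01 for Lrg1 and -0.09 for Serpina3m. Serpina3m had -0.02 with all 20 libraries, with both DEX replicate 4 libraries left out and in the libraries of the block fit, and -0.34 with unloaded DEX replicate 4 kept and the loaded one left out, where Saa3 had -0.08. The Mt2 interaction was 0.05 in the libraries of the block fit. Without 1 library, Cp ranged from -0.16 to 0.02 for DEX in unloaded tibiae and from -0.02 to 0.09 for loading with vehicle, Lrg1 from -0.37 to 0.14 and Serpina3m from -0.02 to 0.49 for loading under DEX, and the interaction from -0.47 to 0.11 for Serpina3m and from -0.63 to 0.15 for Mt2. The causes were not tested.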
